A study of Rattus norvegicus with 15 samples.

Results

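The mitochondrial respiratory chain and the ATP synthase were followed here through the RNA of their subunits in cultured rat airway epithelial cells. Members are the genes of the deposited table whose symbol starts with Nduf, Uqcr, Cox4 to Cox8 or Atp5 or is Sdha, Sdhb, Sdhc or Sdhd, together with the protein-coding genes of the mitochondrial chromosome (MT). This rule matched 108 of the 21969 genes listed, and 104 of them held at least 50 counts over the 15 libraries. These 104 comprise 91 nuclear genes and 13 MT-encoded genes. The 4 genes under the minimum were Cox4i2 with 28 counts in all, Cox8b with 22, Cox6b2 with 13 and a processed pseudogene named Ndufs6 with 7. All 104 passed the filter on low counts and were tested among 15860 genes.

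Complexes I to IV pass electrons from NADH and succinate to oxygen. Complexes I, III and IV thereby pump protons across the inner mitochondrial membrane, and complex V, the ATP synthase, makes ATP as the protons flow back. Complexes I, III, IV and V are built from subunits of both genomes, whereas complex II is wholly nuclear. MT genes are transcribed from a few promoters of the mitochondrial DNA by a dedicated polymerase into long precursors, from which the single RNAs are cut, while each nuclear subunit has a promoter of its own. In airway epithelium, ciliated cells hold many mitochondria beneath the beating cilia.

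The cells were freed from rat trachea and grown for 3 to 4 weeks at an air-liquid interface. Of 15 libraries, 5 were untreated controls and 5 had received 10% CSE over 24 h. The last 5 were pretreated with 100 µM naringenin, a citrus flavanone, over 4 h before 10% CSE was added alongside it. The labels do not expand the abbreviation CSE, and no library had naringenin alone. They name no strain, animal or culture, so that the tests weigh differences against the spread of the libraries, which may be technical. In bulk RNA, fewer cells of a type and less RNA per cell cannot be told apart.

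Library totals ran from 55.1 M to 60.6 M counts. The 13 MT-encoded members took 7.29 to 9.06% of the counts of a library, the 91 nuclear members 0.531 to 0.647% and the other rows of the MT chromosome 0.147 to 0.352%. After the group means were taken out, genes other than members divided the libraries into 3 sets that cut across the groups. Set 1 held controls 1 and 2, CSE 1 and 3 and CSE with naringenin 3 and 4. Set 2 held controls 3 and 4, CSE 2 and 4 and CSE with naringenin 1 and 2, and set 3 held replicate 5 of each group. The labels do not name these sets, and libraries of 1 set may repeat a culture.

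Per length, MT-encoded RNA stood far above nuclear RNA for the same complexes. FPKM, a level per length and depth computed by the authors, had a median over the 13 MT-encoded members of 4592 in control libraries against 53.4 over the 91 nuclear members, a quotient of 86.0. Mt-co1, the catalytic subunit of cytochrome c oxidase, was highest at 19990 ± 1023 FPKM (SD, n = 5), and Mt-nd6, the single member on the other strand of the MT chromosome, was the lowest MT-encoded gene at 699.9 ± 216 FPKM. No nuclear member reached that level. The highest was Atp5f1b, the catalytic beta subunit of ATP synthase, at 341 ± 27.6 FPKM, followed by Cox4i1, a core nuclear subunit of complex IV, at 226 ± 18.9 FPKM and by Atp5if1, the inhibitor of ATP hydrolysis by complex V, at 223 ± 42.7 FPKM. The spread of Cox4i1 and Atp5if1 covered the difference between them.

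**Figure D1:**
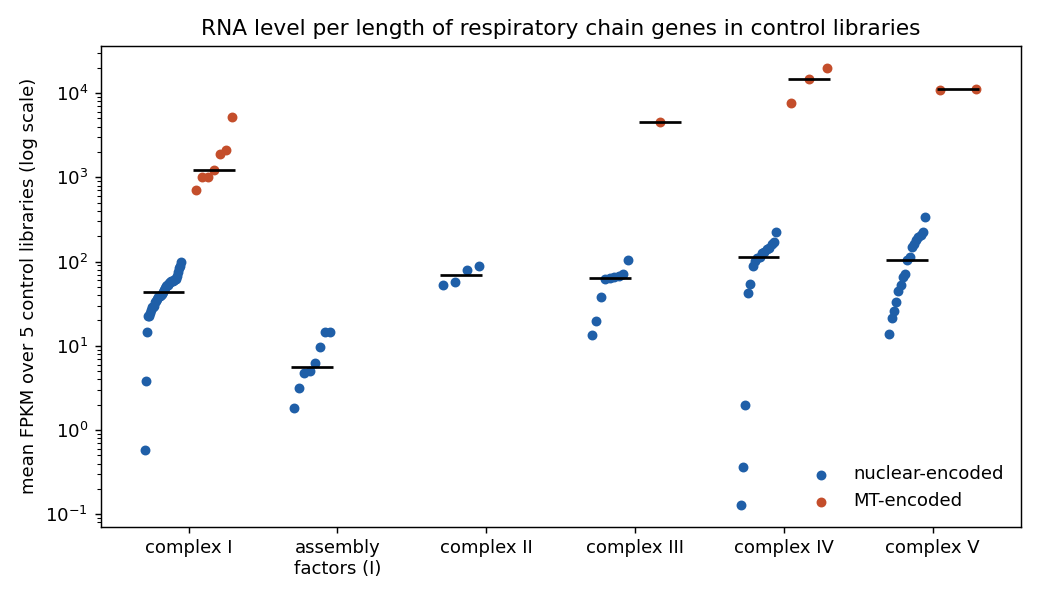
Mean FPKM over the 5 control libraries (log axis) of each member, by complex, with nuclear genes in blue, MT-encoded genes in red and black lines at the medians. Every MT-encoded gene sits above every nuclear one, and the assembly factors form the lowest nuclear class at a median of 5.67 FPKM.

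Among nuclear classes the median FPKM in controls was 112 for the 16 members of complex IV, 103 for the 17 of complex V, 68.6 for the 4 of complex II, 63.3 for the 9 of complex III and 43.8 for the 37 subunits of complex I. The 8 complex I assembly factors (Ndufaf genes), which help to build the complex but are not part of it, had a median of 5.67 FPKM and ran from 1.82 FPKM for Ndufaf2 to 14.7 FPKM for Ndufaf3. Isoforms typical of heart and skeletal muscle were near the floor: Cox6a2 at 0.130 ± 0.240 FPKM and Cox7a1 at 0.365 ± 0.122 FPKM, while Cox6a1, the broadly expressed counterpart of Cox6a2, stood at 171 ± 21.4 FPKM. Among the MT-encoded genes the order also followed the complexes, with medians of 14647 FPKM for the 3 of complex IV, 11098 for the 2 of complex V, 4592 for Mt-cyb of complex III and 1230 for the 7 of complex I.

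Some of these levels are uncertain. Cox6b1, Ndufa10l1, Ndufv3 and Uqcrb each stand on 2 chromosomes of the deposited table, and reads of near-identical copies can be split between them. RefSeq lists pseudogenes named Cox6b1-ps1, Uqcrb-ps1 and Uqcr10-ps1. In all, 27 members overlap another annotated gene, among them Atp5pf with Gabpa over 7393 bases of the opposite strand and Mt-atp8 with Mt-atp6 over 43 bases of the same strand. Atp5f1c, the gamma subunit of the ATP synthase, has an FPKM of 13.9. Its counts and FPKM together imply a length of about 8200 bases, so its level per length cannot be set beside the others. The next longest implied length was 3406 bases, for Ndufaf4. Lengths implied in this way were 1.11 times the annotated span for MT-encoded genes and are therefore approximate. Poly(A) selection also bears on the MT levels, since human ND6 RNA is known to lack a long poly(A) tail.

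The comparison of CSE with control asked which respiratory chain RNAs changed with CSE. Levels per library are given as CPM, counts scaled to a common library size by TMM, and a member was called at an edgeR adjusted p under 0.05 over all 15860 genes. Of the 91 nuclear members 6 were higher in CSE and 0 were lower, and of the 13 MT-encoded members 0 were called in either direction. Over all genes tested, 10.8% were called higher, 10.4% lower and 21.2% in either direction, so the nuclear share of 6.59% lay under the background. At an unadjusted p under 0.05 edgeR gave 14 nuclear and 0 MT-encoded members. The median log2 fold change was 0.03 for nuclear members, -0.09 for MT-encoded members and -0.0026 for all genes. The 95% interval of the fold change lay within 1.5-fold of no change for 80 of the 91 nuclear and 13 of the 13 MT-encoded members, against 51.8% of all genes.

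The absence of lower calls depended on the fit. DESeq2 called 6 nuclear members higher and 4 lower (Atp5mc2, Cox4i1, Ndufa4l2 and Ndufs3), RLE scaling 6 and 2, and a fit with the library set as a block 9 and 7. Without control 3 the counts were 5 and 5, and without CSE 4 they were 4 and 0. Leaving out control 4 or 5 or CSE with naringenin 1 or 4 gave 1 lower. MT-encoded members were called in 2 alternative fits, 2 lower with the library set as a block and 3 lower without control 5.

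The assembly factors of complex I carried most of the calls. Ndufaf1, Ndufaf4, Ndufaf5 and Ndufaf7 rose with CSE, 4 of 8 assembly factors, against 2 of the 83 other nuclear members. Each of the 4 passed in all 26 alternative fits, leave-one-out fits included, though Ndufaf7 only just, at an adjusted p of up to 0.04999. These 4 were also the only of the 91 nuclear members whose 5 CSE libraries all lay on 1 side of the 5 controls. Of all genes, 14.6% showed such a separation.

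Ndufaf4, which acts early in the assembly of complex I, was at 18.6, 15.0, 18.7, 16.3 and 13.7 CPM in control libraries 1 to 5 and at 24.1, 23.9, 23.6, 22.6 and 23.5 CPM in CSE libraries 1 to 5. The CSE libraries were close together and all above the controls. The rise was 1.43-fold (95% interval 1.25 to 1.64), 0.52 ± 0.09 (SE) on the log2 scale, at an edgeR adjusted p = 0.00139.

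Ndufaf5, a methyltransferase-like protein that hydroxylates an arginine of the subunit NDUFS7 in human cells, was at 8.70, 9.26, 9.12, 7.33 and 6.68 CPM in the controls and at 11.3, 10.8, 12.4, 13.9 and 12.0 CPM with CSE. Again no CSE library reached down to a control. The rise was 1.47-fold (95% interval 1.22 to 1.76; log2 0.55 ± 0.12) at an edgeR adjusted p = 0.00573.

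Ndufaf1, a scaffold of the membrane arm of complex I, was at 11.5, 10.5, 13.4, 11.4 and 8.63 CPM in the controls and at 15.1, 15.6, 13.9, 17.3 and 17.2 CPM with CSE. Control 5 was the lowest library, and control 3 lay just under CSE 3. The rise was 1.43-fold (95% interval 1.20 to 1.69; log2 0.51 ± 0.12) at an edgeR adjusted p = 0.00681.

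Ndufaf7, an arginine methyltransferase of the mitochondrial matrix, was at 40.5, 36.5, 42.8, 42.7 and 33.4 CPM in the controls and at 45.4, 47.9, 48.0, 49.1 and 47.5 CPM with CSE. Its groups were also apart, with the smallest step of the 4 genes. The rise was 1.21-fold (95% interval 1.08 to 1.36; log2 0.28 ± 0.08) at an edgeR adjusted p = 0.0210.

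The other 4 assembly factors did not pass. Log2 differences were 0.34 for Ndufaf2 (95% interval of the fold 0.851 to 1.88), 0.28 for Ndufaf6 (0.947 to 1.55), 0.17 for Ndufaf8 (0.924 to 1.36) and -0.02 for Ndufaf3 (0.845 to 1.15). Ndufaf2 and Ndufaf6 were scarce, at 1.10 to 3.90 CPM and 3.18 to 6.31 CPM over the control and CSE libraries. Thus their intervals still hold a rise as large as that of Ndufaf1.

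**Figure D2:**
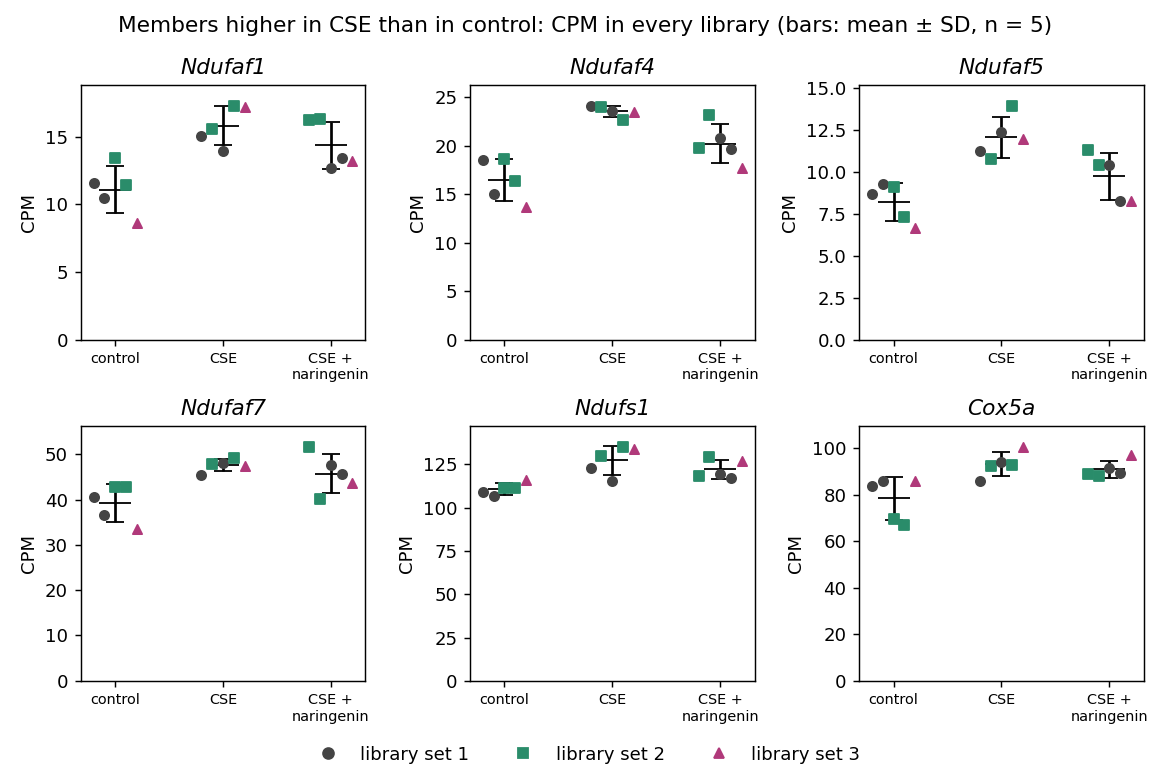
CPM of the 6 members called higher in CSE than in control, in every library of the 3 groups (points, shaped by library set), with mean ± SD (n = 5). For Ndufaf1, Ndufaf4, Ndufaf5 and Ndufaf7 all CSE points lie above all control points, whereas CSE and control points overlap for Ndufs1 and Cox5a.

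By the coordinates of the deposited table, for which no build is named in the sources used here, Ndufaf1 (ENSRNOG00000005006) spans chromosome 3 from 111458572 to 111469518 and Ndufaf5 (ENSRNOG00000004784) chromosome 3 from 133232432 to 133261973. Ndufaf4 (ENSRNOG00000007506) spans chromosome 5 from 39251337 to 39257512 and Ndufaf7 (ENSRNOG00000005279) chromosome 6 from 1534594 to 1545828. The 250 bases before the start of each of these 4 genes are printed because they rose together. They come from RefSeq on build GRCr8, read 5′ to 3′ on the gene's strand, at chr3:127104021-127104270 on the minus strand (Ndufaf1), chr5:43401545-43401794 on the plus strand (Ndufaf4), chr3:147961362-147961611 on the plus strand (Ndufaf5) and chr6:21871966-21872215 on the minus strand (Ndufaf7, which the deposited table places on the plus strand). Capitals mark matches on either strand to 4 motifs: GCGCA and GCGC around 1 free base, read by nuclear respiratory factor 1 (NRF1); CCGGAAG, a core of ETS factors such as GABPA; TNGCGTG, a core of xenobiotic response elements bound by the aryl hydrocarbon receptor; and TGACNNNGC, a core of antioxidant response elements.
Ndufaf1: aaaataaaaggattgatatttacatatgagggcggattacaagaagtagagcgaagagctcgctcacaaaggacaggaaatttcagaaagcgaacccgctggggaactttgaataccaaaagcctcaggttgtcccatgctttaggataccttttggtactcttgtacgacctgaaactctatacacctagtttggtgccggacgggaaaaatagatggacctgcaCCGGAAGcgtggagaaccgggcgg
Ndufaf4: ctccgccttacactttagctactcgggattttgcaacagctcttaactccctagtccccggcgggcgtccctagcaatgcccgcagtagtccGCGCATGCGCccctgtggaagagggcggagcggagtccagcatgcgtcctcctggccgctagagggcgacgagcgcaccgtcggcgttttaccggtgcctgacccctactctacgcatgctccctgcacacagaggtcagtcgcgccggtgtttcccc
Ndufaf5: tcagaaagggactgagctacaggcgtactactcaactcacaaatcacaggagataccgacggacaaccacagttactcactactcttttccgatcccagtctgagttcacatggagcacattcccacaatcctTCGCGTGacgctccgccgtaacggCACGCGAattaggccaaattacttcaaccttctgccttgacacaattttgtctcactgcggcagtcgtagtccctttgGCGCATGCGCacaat
Ndufaf7: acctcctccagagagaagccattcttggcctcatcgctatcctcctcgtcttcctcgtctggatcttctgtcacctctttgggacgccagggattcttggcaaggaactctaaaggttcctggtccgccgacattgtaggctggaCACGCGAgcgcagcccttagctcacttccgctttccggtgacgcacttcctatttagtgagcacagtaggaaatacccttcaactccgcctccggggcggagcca

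The 4 windows did not share 1 motif. Ndufaf1 held the ETS core 24 bases before the start, and Ndufaf4 the NRF1 motif 158 bases before it. Ndufaf5 held the NRF1 motif 15 bases before the start and 2 matches to the xenobiotic core, at 117 and 93 bases. Ndufaf7 held 1 match to the xenobiotic core, 105 bases before the start. No match overlapped another in these windows.

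Among the 74 nuclear members with a RefSeq window of this length, 14.9% held the NRF1 motif and 27.0% the ETS core, against 4.17% and 7.74% of 27457 windows, 1 for each gene. The antioxidant core stood in 13.5% of the members' windows and 10.2% of all, and the xenobiotic core in 6.76% and 4.26%. A match is a string of letters and not a shown binding site.

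Beyond the assembly factors, 1 complex I subunit and 1 complex IV subunit rose. In the deposited table Ndufs1 (ENSRNOG00000011849) spans chromosome 9 from 69919867 to 69953182 and Cox5a (ENSRNOG00000018816) chromosome 8 from 62298358 to 62309765. Ndufs1, the largest subunit of complex I with iron-sulfur clusters in its NADH-oxidising arm, was at 109, 107, 111, 112 and 116 CPM in the controls and at 123, 129.8, 115, 135 and 134 CPM with CSE. Control 5 lay just above CSE 3, and the other 4 controls lay below every CSE library. The rise was 1.15-fold (95% interval 1.06 to 1.24; log2 0.20 ± 0.05) at an edgeR adjusted p = 0.0180, and without CSE 4 it missed the threshold (adjusted p = 0.0543; 0.00104 to 0.0543 over 26 alternatives).

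Cox5a, a nuclear subunit that packs against the core of cytochrome c oxidase, was at 83.6, 85.8, 69.6, 67.2 and 86.0 CPM in the controls and at 85.8, 92.4, 94.2, 92.7 and 100.4 CPM with CSE. Controls 3 and 4 of set 2 were low, and the other 3 controls lay near CSE 1. The rise was 1.19-fold (95% interval 1.06 to 1.33; log2 0.25 ± 0.07) at an edgeR adjusted p = 0.0289. It missed the threshold in 7 of 26 alternatives, with an adjusted p of up to 0.0734: without control 3 or 4, without CSE 2, 3, 4 or 5, and in a fit of only the groups compared.

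The other subunits of complex I did not pass in this fit. Their 37 nuclear members, Ndufs1 included, had a median log2 of 0.03 and a range from -0.46 (Ndufa1, a small membrane subunit) to 0.39 (the copy of Ndufa10l1 on chromosome 6, with an SE of 1.37). All 4 subunits of complex II, succinate dehydrogenase, lay between -0.02 and 0.04. For Sdha, its flavoprotein, the fit gave a log2 of -0.0034 ± 0.087, with 227, 222, 180.4, 189 and 225 CPM in the controls and 222, 192, 227, 183 and 217 CPM with CSE. Low values in both groups came from set 2.

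Complex III was likewise close to no change, with a median log2 of 0.05 over 9 members and all 9 intervals within 1.5-fold. Uqcrc2, a core protein of the complex and its most abundant nuclear member by CPM, had a log2 of 0.0095 ± 0.057. Of the 17 complex V members 0 passed. Atp5f1b was at 714, 749, 629, 621 and 755 CPM in the controls and at 636, 633, 646, 632 and 639.6 CPM with CSE (log2 -0.12 ± 0.06, edgeR adjusted p = 0.198). The CSE libraries clustered between low controls of set 2 and higher controls of the other sets. Atp5if1, the inhibitor protein, had a log2 of 0.27 ± 0.12 (edgeR adjusted p = 0.129; 0.00656 to 0.273 over 26 alternatives).

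Complex IV showed the widest spread because of its scarce isoforms. Ndufa4l2, a paralogue of the subunit Ndufa4 that is induced by hypoxia-inducible factor, was at 3.39, 2.55, 0.461, 0.888 and 3.69 CPM in the controls and at 0.671, 0, 0.850, 0.115 and 0.472 CPM with CSE. Controls 1, 2 and 5 were high, control 4 lay just above the highest CSE library, and control 3 lay within the CSE range. The log2 difference was -2.37 ± 0.90 at an edgeR adjusted p = 0.0741, and 6 of 26 alternatives passed, with adjusted p from 0.00129 to 0.139. DESeq2 was among the 6, with an adjusted p = 0.0353.

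Cox4i1 was at 193, 197, 168, 173 and 216 CPM in the controls and at 159.9, 172, 159, 173 and 176 CPM with CSE. Highest were controls 1, 2 and 5, while controls 3 and 4 lay within the CSE range. The log2 difference was -0.17 ± 0.07 (edgeR adjusted p = 0.0891; 0.0197 to 0.211 over 26 alternatives). The muscle isoforms Cox6a2 and Cox7a1 stayed under 1 CPM in all 15 libraries.

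**Figure D3:**
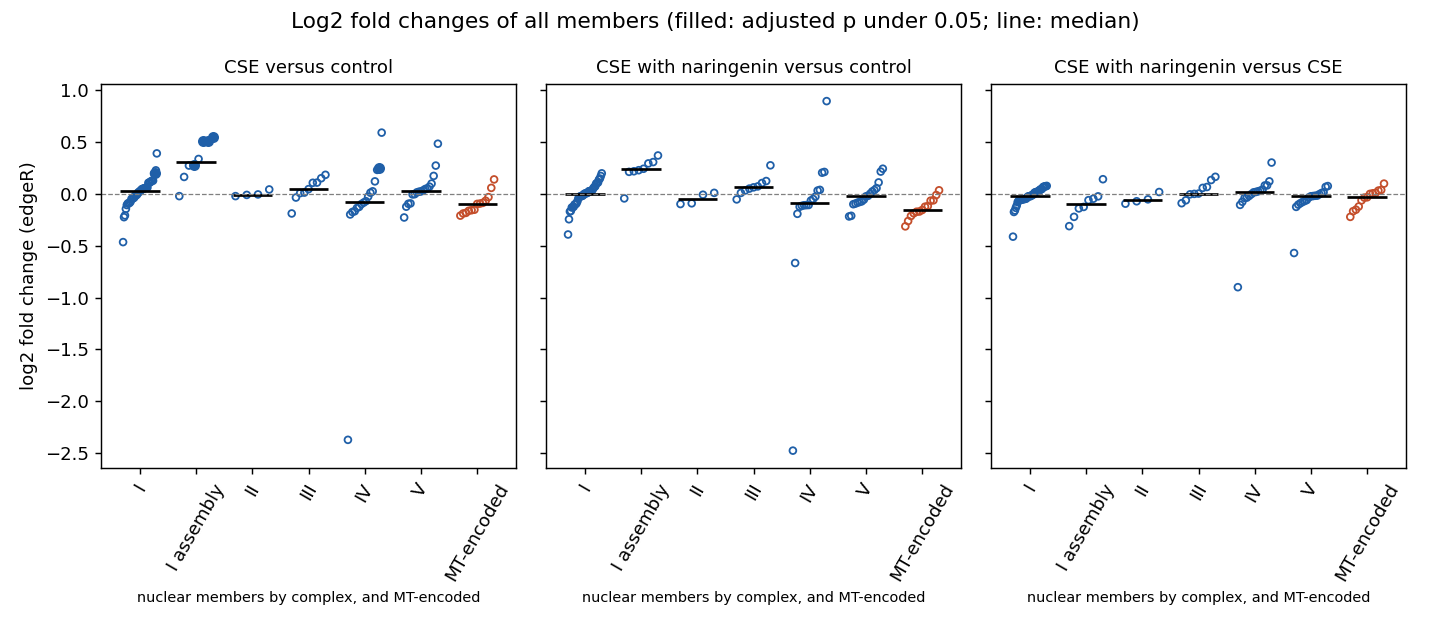
Log2 fold changes (edgeR) of all 104 members by class for the 3 comparisons, with filled points for an adjusted p under 0.05 and black lines at class medians. In CSE versus control the assembly factors have the highest median, 0.31, and 6 points are filled, while no point is filled in either comparison with naringenin.

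The MT-encoded members made no call in CSE versus control, and 11 of 13 had a negative log2 difference. Their differences ran from -0.21 for Mt-cyb, cytochrome b of complex III, to 0.14 for Mt-nd1, a membrane subunit of complex I. Mt-cyb was at 6724, 6875, 6444, 6513 and 3430.5 CPM in the controls and at 4846, 5717, 5389, 5586 and 4423 CPM with CSE. Controls 1 to 4 lay above every CSE library, and control 5 lay below all of them.

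Control 5 was the lowest control for most of these genes, but not for Mt-nd2, Mt-co1 or Mt-co3. Its median over the 13 genes was -0.42 on the log2 scale relative to the control mean, and 1 of 13 genes, Mt-co1, was above that mean. Mt-nd6, a complex I subunit, was at 515, 505, 433, 416 and 206 CPM in the controls, and Mt-nd5, a proton-pumping subunit of the same complex, at 2475, 2408, 2281, 2164 and 1309.9 CPM. Mt-co1 was instead highest in control 5, at 34312, 34276, 33391, 35621 and 39653 CPM. Without control 5 the median log2 of the MT-encoded members was -0.21 and 3 passed as lower: Mt-cyb (log2 -0.36 ± 0.10, edgeR adjusted p = 0.0175; 0.0175 to 0.719 over 26 alternatives), Mt-nd3 (-0.32 ± 0.09, adjusted p = 0.0229; 0.0229 to 0.769) and Mt-nd5 (-0.23 ± 0.07, adjusted p = 0.0378; 0.0378 to 0.985).

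The other MT-encoded genes overlapped between control and CSE. Mt-atp8, a small membrane subunit of the ATP synthase, was at 2542, 2624, 2563, 2639 and 2382 CPM in the controls and at 1955, 2366, 1974, 2357 and 2592 CPM with CSE. Low values came from CSE 1 and 3 of set 1, and CSE 5 reached into the controls (log2 -0.18 ± 0.09, edgeR adjusted p = 0.176; 95% interval of the fold 0.770 to 1.01). Mt-co1 ran from 29565 to 39133 CPM with CSE, a range that took in all controls but control 5.

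Mt-nd1 was at 2285, 2308, 2605, 2508 and 1687 CPM in the controls and at 1946, 3021, 2130, 3007 and 2463 CPM with CSE. Here CSE 2 and 4 of set 2 were highest. In Mt-nd2, also a membrane subunit of complex I, CSE 5 stood above all other control and CSE libraries at 8362 CPM, against 5303 to 6479 CPM in them.

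**Figure D4:**
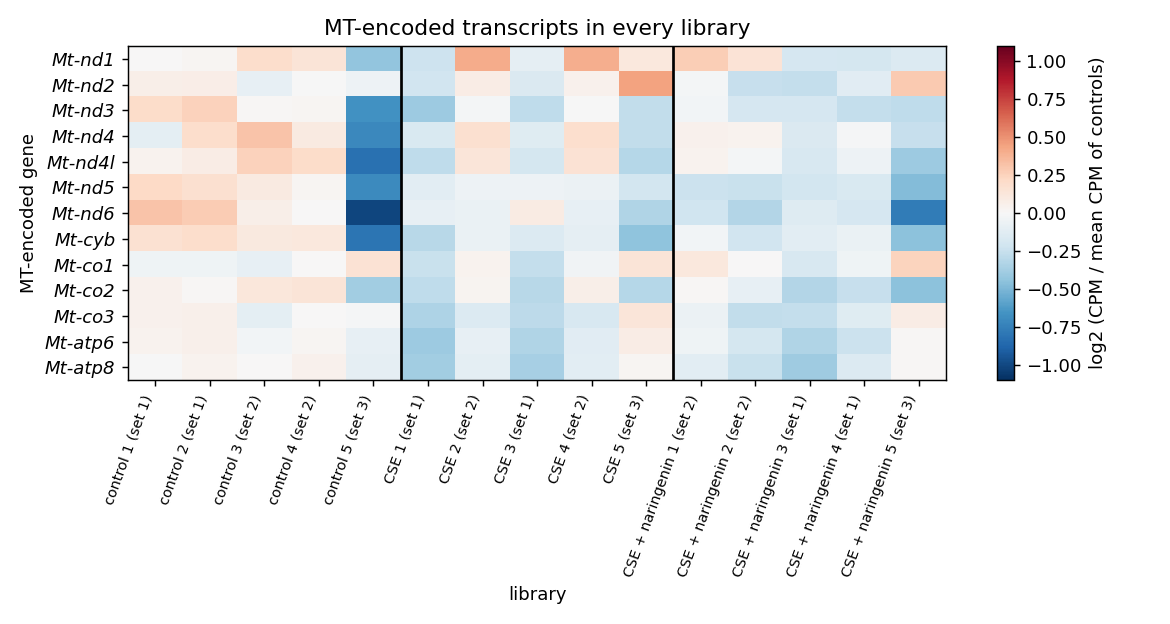
Log2 ratio of CPM to the control mean for the 13 MT-encoded genes (rows) in the 15 libraries (columns, with the library set), blue for lower and red for higher. Control 5 is blue for most genes, Mt-nd6 most of all, but not for Mt-co1, and CSE 1 is at or below the control mean for all 13.

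The balance of MT-encoded and nuclear members overlapped between the groups. The quotient of summed MT-encoded over summed nuclear counts was 13.5, 13.2, 15.5, 15.9 and 12.9 in the controls, 12.0, 14.1, 12.2, 13.7 and 13.8 with CSE, and 14.8, 13.8, 12.2, 13.6 and 14.2 with CSE and naringenin. The groups overlapped, at 14.2 ± 1.40, 13.2 ± 0.966 and 13.7 ± 0.943 (SD, n = 5). Controls 3 and 4 were highest, and set 2 lay above set 1 in each group. The nuclear share of counts was 0.588% ± 0.0515, 0.617% ± 0.0159 and 0.608% ± 0.0205, and the MT-encoded share 8.29% ± 0.369, 8.14% ± 0.734 and 8.33% ± 0.638.

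**Figure D5:**
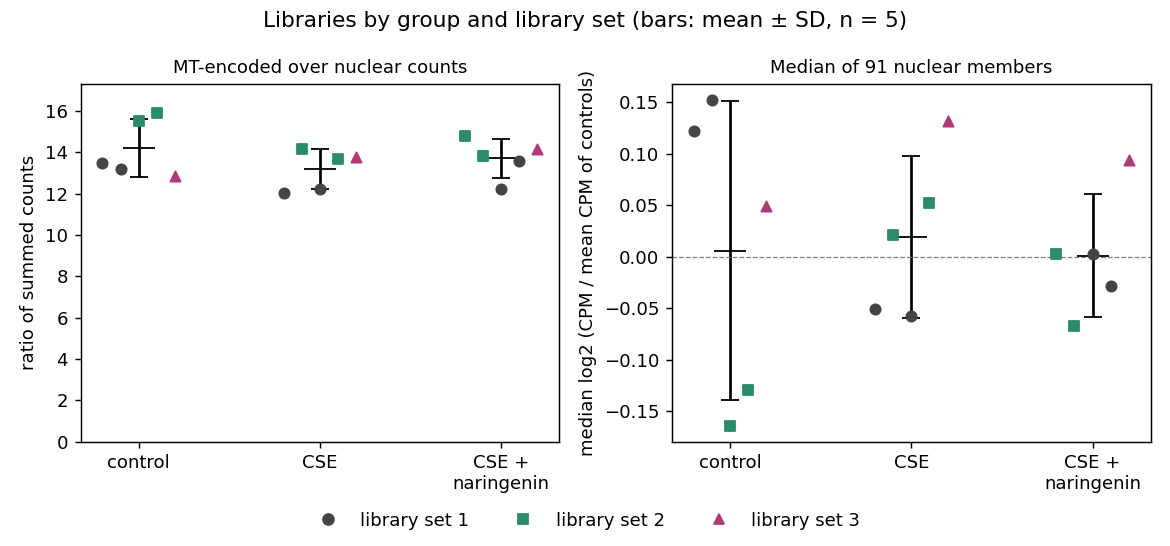
Left, summed MT-encoded over summed nuclear counts in every library; right, median over the 91 nuclear members of the log2 ratio of CPM to the control mean; points are shaped by library set, with mean ± SD (n = 5). The 3 groups overlap in both, and controls 3 and 4 of set 2 are the lowest libraries for the nuclear median, at -0.16 and -0.13.

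Subunits other than assembly factors varied with the library set. The median of the 91 nuclear members relative to the control mean was 0.12 and 0.15 in controls 1 and 2, but -0.16 and -0.13 in controls 3 and 4. Within sets 1, 2 and 3, the median log2 fold change of CSE over control was -0.17, 0.17 and 0.08 for nuclear members. It was -0.20, 0.16 and 0.06 for the 83 nuclear members other than assembly factors, and -0.30, -0.09 and 0.40 for MT-encoded members. Set 3 holds 1 library of each group and gives a value without a check.

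An edgeR interaction of group with library set, added after the data were seen, tested whether the effect of CSE differed between sets. It passed for 23 of 91 nuclear and 8 of 13 MT-encoded members, where 4.72% of all genes passed. Its error comes from pairs of libraries in 1 set, which may not be separate cultures. The sets were themselves found by grouping these same libraries by likeness on other genes. Paired libraries are therefore alike by choice, and the interaction p-values can be too small. The pooled values average over sets whose class medians differed in sign, for MT-encoded members only through set 3. An interaction shows a difference between sets and not a change of sign in each member. The lowest interaction p-values among members were those of Mt-nd5 (log2 of -0.28, -0.12 and 0.50 in sets 1, 2 and 3; edgeR adjusted p = 0.00282) and Mt-nd3 (-0.57, -0.03 and 0.40; adjusted p = 0.00410). Among nuclear members Ndufa4, a small subunit of complex IV, had the lowest (-0.22, 0.31 and 0.54; adjusted p = 0.00471). These 3 were chosen after their values were seen. For the 8 assembly factors the medians in sets 1, 2 and 3 were 0.34, 0.41 and 0.44, and the interaction passed for 0 of 8. Ndufaf4 had a log2 of 0.51, 0.41 and 0.77 in the 3 sets, Ndufaf5 0.40, 0.58 and 0.84, Ndufaf1 0.40, 0.41 and 0.99, and Ndufaf7 0.28, 0.18 and 0.51.

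The comparison of CSE with naringenin against CSE alone asked what naringenin altered in CSE-treated cells. Of the 91 nuclear members 0 were called higher and 0 lower, and of the 13 MT-encoded members likewise 0, where 0.334% of all genes were higher and 0.574% lower. DESeq2 and limma-voom also called 0 members, and edgeR gave 5 nuclear and 0 MT-encoded members at an unadjusted p under 0.05. The median log2 was -0.02 for nuclear and -0.03 for MT-encoded members, and 96 of the 104 intervals lay within 1.5-fold. The other 8 intervals, those of Atp5md, Cox6a2, Cox7a1, Mt-nd6, Ndufa1, Ndufa10l1 on chromosome 6, Ndufa4l2 and Ndufaf2, also held larger changes. Cox7a1, the muscle isoform, had the lowest log2, -0.90 ± 0.35 (edgeR adjusted p = 0.273), from levels under 1 CPM.

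The 4 assembly factors that rose with CSE were picked for high levels in the same CSE libraries that this comparison uses, so a level nearer to control is not independent of that choice and is given as a description. Ndufaf5 was at 11.3, 10.4, 10.4, 8.27 and 8.24 CPM with CSE and naringenin, and Ndufaf4 at 19.7, 23.2, 20.8, 19.7 and 17.7 CPM. Both ranges overlapped the controls as well as CSE alone. Ndufaf1 was at 16.2, 16.3, 12.7, 13.4 and 13.2 CPM and Ndufaf7 at 51.6, 40.1, 47.6, 45.5 and 43.6 CPM, with libraries in the range of each of the other groups. Against CSE alone the log2 difference was -0.31 ± 0.12 for Ndufaf5 (edgeR adjusted p = 0.281) and -0.22 ± 0.09 for Ndufaf4 (adjusted p = 0.306), and neither passed.

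Against control, CSE with naringenin likewise gave 0 nuclear and 0 MT-encoded calls, with 4.26% of all genes called higher and 3.9% lower. EdgeR gave 13 nuclear and 0 MT-encoded members at an unadjusted p under 0.05, DESeq2 called 2 nuclear members higher and 3 lower, and limma-voom called 0. Single libraries left out gave 2 higher and 1 lower without control 3, 1 lower without control 4 and 1 higher without control 1 or CSE with naringenin 5. This comparison shares its controls with CSE versus control, so the values are set side by side only. Ndufaf4 had a log2 of 0.30 ± 0.09 (edgeR adjusted p = 0.0603) where CSE alone gave 0.52. Ndufaf1 had 0.37 ± 0.12 (adjusted p = 0.0624) beside 0.51, and Cox5a 0.21 ± 0.07 (adjusted p = 0.0918) beside 0.25.

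Atp5f1b was at 570.4, 577, 622, 604 and 624 CPM with CSE and naringenin. Controls 1, 2 and 5 lay well above these libraries, and controls 3 and 4 lay near the highest of them. The log2 difference from control was -0.21 ± 0.06 (edgeR adjusted p = 0.0585; 0.00295 to 0.148 over 26 alternatives, 5 of them past the threshold). MT-encoded members had a median log2 of -0.15 against control, and without control 5 Mt-nd5 (log2 -0.39 ± 0.07, edgeR adjusted p = 0.00473; 0.00473 to 0.521 over 26 alternatives), Mt-nd6 and Mt-nd3 passed as lower. The set interaction passed for 5 of 91 nuclear and 5 of 13 MT-encoded members, where 2.76% of all genes passed.

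Genes that build the complexes without being members were read from a list of 43 assembly factors, of which 39 were found and tested. With CSE 11 rose and 0 fell, where 10.8% of all genes rose, with a median log2 of 0.13, and 10 to 11 rose when single libraries were left out. Bcs1l, which inserts the iron-sulfur protein into complex III, rose from 4.18 ± 0.466 to 6.54 ± 0.956 CPM (log2 0.64 ± 0.13, edgeR adjusted p = 0.00387). Coa7, a factor of complex IV, rose by a log2 of 0.59 ± 0.14, and Cox15, an enzyme of heme A synthesis, by 0.46 ± 0.09. Ecsit, Acad9, Timmdc1 and Tmem186 of the complex that assembles the membrane arm of complex I together with Ndufaf1 rose by 0.37, 0.32, 0.41 and 0.36. These 4 were chosen after their values were seen. CSE with naringenin gave 0 calls of this list by edgeR against CSE alone, with 3 genes at an unadjusted p under 0.05 and 1 higher by DESeq2 and by limma-voom. Against control, where 4.26% of all genes were higher, 7 of the list were higher, among them Taco1 (log2 0.49), Lyrm7 (0.48) and Coa4 (0.31). That count was 2 without control 4 or CSE with naringenin 3 or 4, each left out alone. It was 3 or 4 without control 1, 3 or 5, CSE 1, 2, 3 or 4 or CSE with naringenin 1 or 5.

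Genes that keep, copy and transcribe mitochondrial DNA or stabilise its transcripts were read from another list. Of 25 tested from a list of 26, 12 rose with CSE and 1 fell, where 10.8% of all genes rose and 10.4% fell. The other 12 did not pass, and the median log2 was 0.26 over the list. Leaving out single libraries gave 8 to 13 higher, the lowest without control 3 and without CSE 5. Fastkd2, an RNA-binding protein of the mitochondrial matrix, was at 12.4, 10.2, 12.3, 11.7 and 11.3 CPM in the controls and at 16.3, 16.4, 18.8, 18.3 and 16.2 CPM with CSE. Its groups were clearly apart, and the log2 change was 0.57 ± 0.08 at an edgeR adjusted p = 0.000240. Polrmt, the mitochondrial RNA polymerase, rose by 0.37 ± 0.09 (adjusted p = 0.00686). Tfb1m, which methylates mitochondrial ribosomal RNA, rose by 0.49 ± 0.16 (adjusted p = 0.0417; 0.00269 to 0.0995 over 26 alternatives). It passed in 17 of the 26 and missed without control 3 or 4, CSE 1, 3 or 5 or CSE with naringenin 1 or 3, without the filter on low counts, and in a fit of only the groups compared. Tfam, the main packaging and transcription factor of mitochondrial DNA, rose by 0.32 ± 0.07 (adjusted p = 0.00409).

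Lrpprc, which stabilises MT mRNAs, rose by 0.16 ± 0.05 (edgeR adjusted p = 0.0420) and passed in 12 of 26 alternatives, with adjusted p from 0.0109 to 0.0864. Polg, the catalytic subunit of the mitochondrial DNA polymerase, fell from 185 ± 28.0 to 142 ± 6.06 CPM (log2 -0.38 ± 0.09, adjusted p = 0.00681). No MT-encoded member was higher in the same fit. CSE with naringenin gave 0 edgeR calls of this list against CSE alone (3 at an unadjusted p under 0.05; 0 by limma-voom and 2 lower by DESeq2). Against control, where 4.26% of all genes rose and 3.9% fell, 3 genes of this list rose and 1 fell. Those higher were Tfam (log2 0.26), Polrmt (0.35) and Fastkd1 (0.37), and Polg (-0.33) was lower. The count of higher genes was 1 without control 4 or CSE with naringenin 3 or 4, and 5 without control 1, and 0 were lower without control 3 or 4 or CSE with naringenin 1, 2, 3 or 4.

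Of 10 nuclear regulators of respiratory genes 1 rose and 1 fell, a share near the background of 10.8% higher and 10.4% lower over all genes. Hif1a rose (log2 0.37 ± 0.10, edgeR adjusted p = 0.0179) and Perm1, a muscle-enriched coactivator, fell (-0.67 ± 0.19, adjusted p = 0.0201). Hif1a was not called without control 2 (adjusted p = 0.0505), in a fit of only the groups compared (0.0510) or with counts summed per set (0.101), nor Perm1 without control 4 or CSE 1 or 3 (0.0513 to 0.0551). Over 26 alternatives the adjusted p ran from 9.41e-05 to 0.101 for Hif1a and from 3.95e-05 to 0.0551 for Perm1. Ppargc1a, Nrf1 and Gabpa had log2 differences of -0.26, 0.08 and 0.12 and did not pass. Of 17 hypoxia-induced glycolytic genes 0 rose and 1 fell, Pfkl (log2 -0.60 ± 0.09), a phosphofructokinase. Their median log2 was -0.41, with 2 of 17 positive, and -0.20, -0.43 and -0.58 within sets 1, 2 and 3. The count lower was 4 without CSE 5 and 2 without control 1, 3 or 4 or CSE with naringenin 5, and 1 gene was higher without control 5. CSE with naringenin gave 0 edgeR calls of this list against CSE alone. Against control, where 3.9% of all genes were lower, 0 were higher and 4 lower (median log2 -0.56). That count ran from 1 to 5 when single libraries were left out.

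Among 20 genes for electron carriers, ubiquinone synthesis and other donors, 3 rose and 1 fell, a share near the 21.2% of all genes called in either direction. Sqor, which feeds electrons from sulfide into ubiquinone, was at 159.9, 169, 130.3, 145 and 172 CPM in the controls, at 192, 236, 211, 244 and 241 CPM with CSE, and at 159, 146, 163, 154 and 168 CPM with CSE and naringenin. The CSE libraries stood above all others. The log2 change was 0.53 ± 0.09 with CSE (edgeR adjusted p = 0.000691) and -0.51 ± 0.09 with added naringenin (adjusted p = 0.0131). Both contrasts passed in all 26 alternatives, and they share the CSE libraries. Cycs, the cytochrome c that links complexes III and IV, had a log2 of 0.14 ± 0.12 with CSE and did not pass. Coq5, a methyltransferase of ubiquinone synthesis, rose (log2 0.29) and Coq8b, an atypical kinase of the same pathway, fell (-0.37). Without control 5 the list gave 2 lower.

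Over all genes tested, 10.8% rose and 10.4% fell with CSE. Of 24 genes of the citrate cycle and pyruvate entry 6 rose and 0 fell. The largest called rises were those of Pdp1 (log2 0.44), Pdhx (0.39) and Dld (0.31), which belong to or activate the pyruvate dehydrogenase complex. The count higher was 3 without control 4 or CSE 3, and 4 to 6 without any other single library. Without CSE 5 or CSE with naringenin 4, 1 was lower. Of 8 carriers of adenine nucleotides, phosphate and protons, Ucp3, an uncoupling protein homologue, rose from 2.90 ± 1.04 to 6.14 ± 0.821 CPM (log2 1.08 ± 0.23) and Vdac2, an outer membrane channel, by 0.16 ± 0.05 (13 of 26 alternatives passed). Without controls 1, 2, 3 or 4 or CSE 2, 3, 4 or 5, each left out alone, 1 of these carriers was called.

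Markers of the culture were read beside these results. Epcam, an epithelial surface protein, ran at 481 to 638 CPM in controls and at 374 to 445 CPM with CSE (log2 -0.41 ± 0.08, edgeR adjusted p = 0.00240). Over all genes tested, 10.8% were called higher and 10.4% lower with CSE. Of 11 airway epithelial markers found from a list of 13, 0 rose and 5 fell with CSE. Their summed level was 4557 to 5999 CPM in controls and 3128 to 3635 CPM with CSE. This list shares genes with the ciliated, secretory and basal lists below, so its counts and sums are not separate from theirs. Ciliated cell markers gave 0 higher and 6 lower of 14, with sums of 2560 to 4303 CPM and 2083 to 3024 CPM. The summed level of the 12 markers of smooth muscle, fibroblasts and cartilage that were found was 160.3 to 591 CPM in controls and 24.9 to 134 CPM with CSE, and of the 11 tested 1 was higher and 4 were lower. Secretory markers gave 0 higher and 1 lower of 10. Their summed level was 12892 to 15382 CPM in controls and 8698 to 10076 CPM with CSE. Most of that sum was Pigr, at 9737 to 12009 CPM and 6841 to 7702 CPM. Basal markers gave 0 and 3 of 9, with sums of 2242 to 2996 CPM and 1181 to 2218 CPM. Skeletal and cardiac muscle markers gave 0 and 1 of 7, with sums of 32.9 to 67.8 CPM and 8.59 to 21.3 CPM. Ionocyte, leukocyte and endothelial markers gave 0 and 0 of 2, 3 and 1, and the sums of these lists overlapped. Foxi1, the defining factor of ionocytes, was at 0 in 13 of 15 libraries and Ptprc, the pan-leukocyte antigen, at 0 in 12 of 15. Foxj1 and Trp63 were not analysed here. The part of these cell types in the values of the members was not tested.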

How the data were processed

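RNA selected for poly(A) from 15 libraries of rat airway epithelial cells was analysed, 5 in each of 3 groups taken from the labels. Per the labels' protocols, libraries were strand-specific with unique molecular identifiers in the adapters. The submitters' processing notes list StringTie 1.3.4d, HISAT2 2.0.4, edgeR, DESeq2, UMI-tools and cutadapt 1.9 without saying what each did. No build, counting strand or handling of identifiers is given in the sources used here.

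The values tested are raw counts per gene as deposited by the authors. FPKM values, also computed and deposited by the authors, served to compare levels between genes and, as log2(FPKM + pseudocount 1 or 0.1), as an alternative. All 15 count and 15 FPKM columns matched 1 sample each. Replicate pairs differed by more than sampling noise (median chi-square per gene 2.78 to 21.1, against 0.455), so none was taken as a repeated deposit.

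The main test was that of edgeR 4.0.16 (R 4.3.3, filterByExpr, TMM, quasi-likelihood F test, 1 fit of all 15 libraries) with Benjamini-Hochberg adjustment over 15860 genes, after a check on simulated counts. Adjusted p-values in the text are from this fit unless another tool is named. Alternatives were RLE scaling, scaling without MT genes, DESeq2 1.42.0, limma-voom (limma 3.58.1), no filter, only the groups compared, replicate and library set blocks, FPKM and leaving out each library. Summing libraries per set and the interaction were added after the data were seen. With 55.1 M to 60.6 M counts a library, counting error is small except for genes near 1 CPM.

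Members and gene lists were chosen with earlier results of these data known. Genes named are all MT-encoded members, up to 4 called members and the most abundant member of each class, stated isoforms, and up to 3 called genes of each list. Others are named where a count of calls needs them or as said. Promoters are RefSeq windows on GRCr8, matched by symbol for 74 of the 83 nuclear members with a unique symbol.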

Additional observations from a re-analysis of the deposited data

Results flagged for a closer look

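Within each group of 5 libraries, 1 library was tested for standing apart from the other 4 by Dixon's criterion, in 117 groups of named member and condition. It gave 9 flags, and chance flags about 1 in 20 groups. Of the 9, 8 fall on replicate 5, the library of set 3 in each group. In control 5, Mt-cyb was at 3430.45 CPM against 6444 to 6875 CPM in the other controls, Mt-nd5 at 1309.89 against 2164 to 2475 CPM, and Mt-nd4l, a small complex I subunit, at 362.746 against 656 to 763 CPM. Mt-nd5 was also low in CSE with naringenin 5, at 1532.7 CPM against 1797.5 to 1897.5 CPM.

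Sdhb, the iron-sulfur subunit of complex II, was high in CSE 5 (82.2573 CPM against 60.3 to 65.5) and in CSE with naringenin 5 (80.9055 CPM against 56.7 to 62.6). Cox7a2l, a factor of respiratory supercomplexes, was high in CSE with naringenin 5, at 86.5474 CPM against 69.9 to 74.3. The copy of Cox6b1 on chromosome 2 was high in CSE 5, at 15.0368 CPM against 11.2 to 12.3. Cox6a2, the muscle isoform, was at 0.313394 CPM in control 4 against 0 to 0.0513 CPM, close to no counts in all 5.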

How the results depend on the processing

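In CSE versus control, nuclear members higher stayed at 4 to 9 in every fit of all members (6 as reported). They were 2 once assembly factors, muscle isoforms and Ndufa4l2 were set aside. Nuclear members lower were 0 as reported but 4 with DESeq2, 2 with RLE scaling, 7 with the library set as a block, 2 with counts summed per set, 1 with FPKM at either pseudocount and 1 with the replicate block. Leaving out single libraries gave 4 to 7 higher and 0 to 5 lower. MT-encoded members lower were 2 with the library set block and 0 to 3 when single libraries were left out, 3 without control 5. In CSE with naringenin versus control, nuclear members higher and lower were 0 and 0, but 2 and 3 with DESeq2, 0 and 1 with RLE scaling, 7 and 5 with the set block, 0 and 1 with summed counts, 7 and 1 with FPKM at pseudocount 1 and 7 and 0 at 0.1; single libraries left out gave 0 to 2 and 0 to 1. MT-encoded members lower were 1 with the set block and 0 to 3 with single libraries left out. CSE with naringenin versus CSE gave 0 in every fit run. The cause of these shifts was not tested.

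Replicate numbers did not pair the libraries. Deviations from the group mean correlated at -0.398 to 0.385 between same-numbered libraries, and 5 of 15 libraries correlated best with their own number. With the replicate block, nuclear calls in CSE versus control were 6 higher and 1 lower.

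Depth limits Cox6a2, Cox7a1 and Ndufa4l2, which lie near or under 1 CPM in most libraries. Reads can be split between the copies of Cox6b1, Uqcrb, Ndufa10l1 and Ndufv3, so the counts of single copies are uncertain.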
